A study of Mus musculus with 9 samples.

Results

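Scavenger receptors and the receptors that take up dying cells are described here in dendritic cells (DCs) sorted from mouse spleens. The 10 genes were chosen by name (Msr1, Marco, Cd163, Mrc1, Stab1, Stab2, Timd4, Mertk, Axl and Cd5l), and each had 1 row among the 54532 genes of the expression values. RNA was sequenced from 3 groups with 3 samples in each. N-mDCs were mature conventional DCs (cDCs) of untreated normal mice. T-mDCs were the mature cDCs of mice with T cell acute lymphoblastic leukemia (T-ALL), and T-DCs were the CD11c+ cells with low MHCII of such mice. The leukemia came from bone marrow cells infected with a retrovirus that carried the intracellular domain of Notch1 and GFP, and GFP+ leukemia cells were then given to C57BL/6J or C57B6.SJL mice without irradiation. The methods give female mice of 6 to 8 weeks and a sort on day 15 after red blood cells were lysed. The labels do not say which strain each sample came from or whether the samples are separate mice, so the p-values measure only the spread between these samples.

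Dying cells are cleared by receptors that recognise phosphatidylserine on the outer membrane, either directly, as TIM-4 (Timd4) and the stabilins do, or through a bridging ligand, as the receptor kinases MerTK and Axl do with Gas6 and protein S. Scavenger receptors such as SR-A (Msr1), MARCO and CD163 bind modified lipoproteins, bacteria or haptoglobin-hemoglobin complexes, and the mannose receptor (Mrc1) binds glycoproteins. In the spleen these genes are best known from macrophages: Cd163, Mertk, Axl and Cd5l from those of the red pulp, and Marco from those of the marginal zone. In these samples 8 of the 10 genes had a lower mean in T-DCs than in N-mDCs, but T-DC samples 1 to 3 were spread widely and none of the 9 genes tested passed the threshold. Against T-mDCs, all 10 means were higher in T-DCs, again with none past the threshold.

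Values are FPKM, the reads on a gene per kilobase of its length, scaled by a size for each sample. The sizes that the values imply were not the reads on genes. They were below them in every T-DC sample (15498648 against 16977553 in T-DC sample 2). In every T-mDC sample they were above them (18878243 against 17559243 in T-mDC sample 1). How the sizes were set is not given in the sources used here. Tests used limma on log2(FPKM + 1) over the 12746 genes that reached an FPKM of 1 in 3 or more of the 9 samples, with a Benjamini-Hochberg adjusted p under 0.05 as the threshold, and fold changes are on that scale. This filter kept 9 of the 10 genes, and Stab1 is given by its values only. Between 15360815 and 18440913 reads lay on genes in each sample. T-DC sample 1 stood apart from the other two T-DC samples, with a Pearson r across tested genes of 0.836 and 0.808 with them and of 0.921 with T-mDC sample 1. The 8 erythroid markers, hemoglobin genes among them, took 5.04% and 3.88% of the reads in T-DC samples 2 and 3 and 0.0565% in T-DC sample 1. T-mDC samples 2 and 3 were very close to each other, with a chi-square of 1.85 per gene over genes with 20 to 200 reads, where the other pairs within a group gave 8.11 or more. They were kept as separate samples. The DC markers Flt3, Zbtb46, H2-Aa and Cd74 were lower in T-DCs than in both other groups, and T-DCs were sorted for low MHCII, so H2-Aa and Cd74 follow the sort. Itgax, which encodes CD11c, was at 151.6, 90.4 and 43.0 FPKM in T-DCs and between 158.4 and 230.2 FPKM in the other 2 groups.

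The upstream sequences of 5 of the genes are shown because 4 of them (Mertk, Cd163, Stab2 and Axl) followed one another most closely across the samples and the fifth (Marco) did not. Each is the 250 bases before the RefSeq transcript start (GRCm38.p6), read 5′ to 3′ along the gene's strand. Capitals mark the core of the binding site of PU.1, a myeloid transcription factor (GAGGAA, or TTCCTC on the other strand).
Mertk (chr2:128698665-128698914, + strand): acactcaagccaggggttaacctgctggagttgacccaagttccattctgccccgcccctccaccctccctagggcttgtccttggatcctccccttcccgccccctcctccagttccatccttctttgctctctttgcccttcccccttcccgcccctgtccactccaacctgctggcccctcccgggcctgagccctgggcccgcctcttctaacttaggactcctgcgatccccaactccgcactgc
Cd163 (chr6:124304401-124304650, + strand): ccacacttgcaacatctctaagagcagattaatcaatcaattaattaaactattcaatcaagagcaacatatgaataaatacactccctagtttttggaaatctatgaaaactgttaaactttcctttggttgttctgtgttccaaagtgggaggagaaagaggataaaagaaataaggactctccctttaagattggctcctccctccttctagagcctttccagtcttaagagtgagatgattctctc
Stab2 (chr10:87007943-87008192, - strand): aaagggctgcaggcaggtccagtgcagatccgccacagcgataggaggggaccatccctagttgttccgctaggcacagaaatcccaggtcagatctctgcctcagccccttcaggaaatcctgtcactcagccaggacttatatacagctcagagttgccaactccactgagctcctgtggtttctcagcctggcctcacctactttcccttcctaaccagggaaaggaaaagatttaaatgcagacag
Axl (chr7:25788734-25788983, - strand): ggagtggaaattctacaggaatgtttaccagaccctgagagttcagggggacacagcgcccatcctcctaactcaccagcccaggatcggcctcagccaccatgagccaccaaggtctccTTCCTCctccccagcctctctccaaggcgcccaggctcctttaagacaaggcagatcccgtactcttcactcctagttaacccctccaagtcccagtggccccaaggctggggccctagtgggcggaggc
Marco (chr1:120505025-120505274, - strand): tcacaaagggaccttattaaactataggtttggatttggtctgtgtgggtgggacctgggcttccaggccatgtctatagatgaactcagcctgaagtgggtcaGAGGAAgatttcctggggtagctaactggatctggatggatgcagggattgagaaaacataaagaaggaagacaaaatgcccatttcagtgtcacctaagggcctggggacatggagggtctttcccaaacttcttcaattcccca
These windows differ in base composition, with a GC content of 63.6% for Mertk, 60% for Axl, 53.2% for Stab2, 47.6% for Marco and 36.8% for Cd163. The PU.1 core lay in 5 of the 9 genes with a RefSeq window (Axl, Cd5l, Marco, Mrc1 and Stab1) and in 23.3% of 32817 windows of the same length. The GC box GGGCGG lay in Mertk, Axl and Mrc1 and in 32.7% of all windows. TGCTGA, part of the site of Maf factors, lay in Cd5l, Stab1 and Timd4 and in 16.1% of all windows, and TATAAA lay in none of the 9 and in 12.4% of all. Both strands were searched and each motif was counted on its own. The motifs were chosen after the values were seen, and a match is a run of letters, not a bound site. Msr1 is not among the 9.

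Mertk and Axl encode 2 of the 3 TAM receptor kinases, which bind phosphatidylserine through Gas6 or protein S. Mertk (chromosome 2, 128698956 to 128802894, + strand, mm10) was at 29.0, 28.0 and 44.9 FPKM in N-mDCs, 57.0, 10.8 and 8.13 in T-DCs and 22.6, 6.87 and 6.28 in T-mDCs. T-DC sample 1 was above every N-mDC sample, and T-DC samples 2 and 3 were below every one. Its fitted difference between T-DCs and N-mDCs was -0.89 ± 0.71 (log2, SE, adjusted p = 0.396, limma), with a 95% interval from -2.50 to 0.72. Between T-DCs and T-mDCs it was 0.74 ± 0.71 (adjusted p = 0.515). Axl (chromosome 7, 25757273 to 25788705, - strand) was at 116.3, 142.8 and 143.0 FPKM in N-mDCs, 145.7, 39.6 and 30.1 in T-DCs and 72.04, 23.7 and 22.9 in T-mDCs. The order of the samples was that of Mertk in both leukemic groups. Axl was 1.23-fold apart between the highest and lowest N-mDC sample and 4.84-fold apart among T-DCs. The difference between T-DCs and N-mDCs was -1.24 ± 0.61 (adjusted p = 0.181). Tyro3, the third kinase of the family, was under the filter, at 0.110 FPKM or less in every sample.

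Timd4 encodes TIM-4, which tethers dying cells by phosphatidylserine. The gene (chromosome 11, 46810800 to 46844332, + strand) was the most even of the 10 in N-mDCs, at 20.3, 18.8 and 18.9 FPKM. It was at 26.0, 5.20 and 7.94 FPKM in T-DCs and at 14.0, 2.33 and 2.30 in T-mDCs. All T-DC samples were above T-mDC samples 2 and 3, but 2 of them were below T-mDC sample 1. The difference was 1.06 ± 0.67 against T-mDCs (adjusted p = 0.324, limma) and -0.83 ± 0.67 against N-mDCs (adjusted p = 0.406).

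Stab1 and Stab2 encode the stabilins, large receptors that bind phosphatidylserine, and hyaluronan in the case of stabilin-2. Stab2 (chromosome 10, 86841198 to 87008025, - strand) was at 7.76, 10.8 and 9.39 FPKM in N-mDCs, 15.2, 2.96 and 2.96 in T-DCs and 7.86, 1.96 and 1.77 in T-mDCs. Again sample 1 was the highest of both leukemic groups, above all N-mDCs in T-DCs and within their range in T-mDCs. Neither difference that involves T-DCs passed the test (-0.69 ± 0.61 against N-mDCs, adjusted p = 0.448, and 0.60 ± 0.61 against T-mDCs, adjusted p = 0.538, limma). Stab1 (chromosome 14, 31139013 to 31168641, - strand) was the lowest of the 10 genes in each group by its mean. It was at 0.497, 0.646 and 0.375 FPKM in N-mDCs, 1.84, 0.564 and 0.429 in T-DCs and 1.42, 0.593 and 0.518 in T-mDCs, with 67 to 339 reads. Sample 1 exceeded 1 FPKM in both leukemic groups and no other sample did. Stabilins are also known from sinusoidal endothelium, whose markers were present at low levels. Over all samples the highest values were 8.05 FPKM for Kdr, 5.40 for Cdh5, 3.37 for Vwf, 2.98 for Plvap, 2.18 for Clec4g, 0.830 for Lyve1 and 0.0337 for Tek. The 8 endothelial markers had a summed FPKM from 28.7 to 33.4 (N-mDCs), 39.9 to 114.8 (T-DCs) and 25.9 to 47.6 (T-mDCs), most of it from Pecam1, which leukocytes share. Of the 6 tested, Pecam1 was higher and Kdr and Clec4g were lower in T-DCs than N-mDCs, and Vwf was higher and Kdr lower in T-DCs than T-mDCs. In these comparisons 16.4% and 14.2% of all tested genes passed. The part of endothelial cells in the stabilin values was not tested. Exons of Stab1 share 112 bases (1.09% of its exons) with Nt5dc2 on the other strand and those of Stab2 share 141 bases (1.61%) with the antisense gene Gm16268. Whether strand was used in counting is not given in the sources used here.

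Cd163 and Cd5l belong to the scavenger receptors with cysteine-rich (SRCR) domains. CD163 takes up haptoglobin-hemoglobin complexes. Cd163 (chromosome 6, 124304656 to 124330527, + strand) was at 21.3, 26.5 and 35.1 FPKM in N-mDCs, 40.9, 7.60 and 6.05 in T-DCs and 17.7, 4.14 and 4.32 in T-mDCs. The N-mDC samples lay between T-DC sample 1 and the other T-DC samples. Its difference was -1.04 ± 0.72 against N-mDCs (adjusted p = 0.328, limma) and 0.77 ± 0.72 against T-mDCs (adjusted p = 0.502). Cd5l encodes AIM, a secreted protein of macrophages rather than a receptor on the surface. The gene (chromosome 3, 87357881 to 87371073, + strand) was at 101.5, 220.8 and 144.4 FPKM in N-mDCs, 543.3, 113.1 and 84.3 in T-DCs and 249.7, 51.7 and 49.3 in T-mDCs. It was the only tested gene of the 9 whose fitted difference between T-DCs and N-mDCs was above 0 (0.23 ± 0.81, adjusted p = 0.869), and without T-DC sample 1 this was -0.59 (adjusted p = 0.515).

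Marco and Msr1 encode class A scavenger receptors, which bind bacteria and modified lipoproteins. Marco (chromosome 1, 120474538 to 120505024, - strand) was at 32.7, 40.8 and 18.3 FPKM in N-mDCs, 36.2, 35.2 and 13.3 in T-DCs and 14.9, 1.69 and 1.75 in T-mDCs. T-DC sample 2 was close to T-DC sample 1 here, unlike for the genes above, and only T-mDC samples 2 and 3 were far below the rest, with 63 and 62 reads. The T-DC mean was 28.2 ± 12.9 FPKM (SD, n = 3) and the T-mDC mean 6.12 ± 7.62 (SD, n = 3). The difference of 2.45 ± 0.71 had an adjusted p of 0.0513 in limma, just above the threshold, and T-DC sample 3 was below T-mDC sample 1. The difference stayed above 0 in every alternative, and its side of the threshold did not. It passed with voom on whole reads recovered from FPKM (2.71, adjusted p = 0.0459), with the replicate number as a block (adjusted p = 0.0359), with array weights, which did not converge, and without T-mDC sample 1 (3.30, adjusted p = 0.00469), which leaves the very close pair as the T-mDCs. With that pair averaged to 1 sample it was 2.02 (adjusted p = 0.188), without T-mDC sample 2 or 3 it was 2.02 and 2.03 (adjusted p = 0.189 and 0.187), without T-DC sample 2 it was 2.23 (adjusted p = 0.155), and with red cell genes as a covariate 2.10 (adjusted p = 0.496). Under that covariate 0 of all tested genes passed between T-DCs and T-mDCs. Against N-mDCs it was -0.17 ± 0.71 (adjusted p = 0.891), and its sign turned in 4 of the alternatives.

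Msr1 (chromosome 8, 39581685 to 39642673, - strand) was at 2.04, 2.45 and 3.26 FPKM in N-mDCs, 1.31, 1.87 and 0.758 in T-DCs and 1.53, 0.840 and 1.07 in T-mDCs, with 73 to 376 reads per sample. Here T-DC sample 2 was the highest T-DC sample, and all 3 were below the N-mDC samples. Among the 9 tested genes it was the only one whose T-DC and N-mDC samples did not overlap, while 16.4% of all tested genes were lower in T-DCs without overlap. Its difference of -0.65 ± 0.23 had an adjusted p of 0.0904 (limma).

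Mrc1 encodes CD206, the mannose receptor. The gene (chromosome 2, 14229392 to 14332057, + strand) was at 42.7, 48.5 and 61.8 FPKM in N-mDCs, 52.2, 15.5 and 7.10 in T-DCs and 23.8, 7.42 and 9.16 in T-mDCs. T-DC sample 1 lay within the N-mDC range and T-DC samples 2 and 3 below it. The difference between T-DCs and N-mDCs was the most negative of the 9 (-1.42 ± 0.65, adjusted p = 0.156, limma). Against T-mDCs it was 0.58 ± 0.65 (adjusted p = 0.580).

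**Figure D1:**
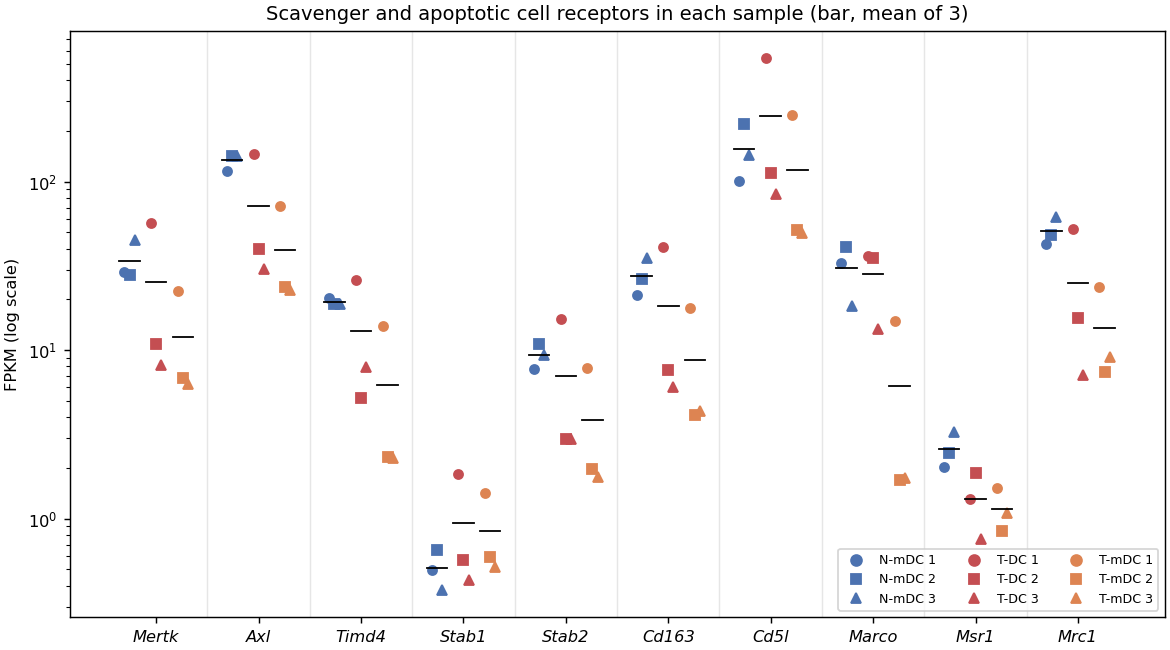
FPKM (log axis) of the 10 genes in N-mDCs (blue), T-DCs (red) and T-mDCs (orange), with a point per sample, shaped by sample number, and a bar at the mean of 3. In 9 of 10 genes T-DC sample 1 is the highest T-DC point, and in all 10 T-mDC sample 1 is the highest T-mDC point.

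Within a group, the levels per kilobase had a similar order. Cd5l and Axl led in each group, and Msr1 and Stab1 were the lowest. In N-mDCs the means were 155.5 ± 60.4 FPKM for Cd5l and 134.1 ± 15.3 for Axl (SD, n = 3), whose ranges overlapped. Mrc1, Mertk, Marco and Cd163 followed at 51.0, 34.0, 30.6 and 27.7 FPKM, each overlapping its neighbour in that order. Timd4, Stab2, Msr1 and Stab1 came next, and none of these overlapped the gene above it. Marco held the third place in T-DCs (28.2 FPKM) and the seventh in T-mDCs (6.12 FPKM). In T-DCs the ranges of all neighbours in the order overlapped except Stab2 and Msr1.

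Sample 1 was the highest of both leukemic groups for most of the 10 genes. T-DC sample 1 was the highest T-DC sample in 9 of the 10 genes and was above all N-mDC samples in 7, whereas T-DC samples 2 and 3 were both below all N-mDC samples in 7. The share of all tested genes with these patterns was not counted, and T-DC sample 1 stood apart across all tested genes. T-DC sample 1 exceeded the mean of T-DC samples 2 and 3 by 6.02-fold for Mertk, 5.99-fold for Cd163, 5.50-fold for Cd5l, 5.14-fold for Stab2, 4.61-fold for Mrc1, 4.18-fold for Axl, 3.95-fold for Timd4 and 3.70-fold for Stab1. Marco (1.49-fold) and Msr1 (0.997-fold) did not share this step. T-mDC sample 1 exceeded the mean of the other T-mDC samples in all 10 genes, from 1.60-fold for Msr1 to 8.66-fold for Marco.

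Most of the genes varied together between samples, so that their ratios were steadier than their levels. Cd163 differed 9.87-fold between its lowest and highest sample, yet its ratio to Mertk in the same sample stayed between 0.602 and 0.947. The ratio to Mertk ran from 0.209 to 0.386 for Stab2, from 0.874 to 1.73 for Mrc1 and from 2.56 to 5.10 for Axl. It was less steady for Cd5l, from 3.22 to 11.1. It also ranged widely for Msr1 (0.0230 to 0.173) and Stab1 (0.00835 to 0.0863), which are low. The ratio was least steady for Marco, from 0.246 in T-mDC sample 2 to 3.25 in T-DC sample 2. Over the 9 samples, Pearson r of log2(FPKM + 1) was 0.994 between Cd163 and Mertk. It ran from 0.735 to 0.994 over the 21 pairs without Msr1 and Marco, with a median of 0.952. Over the 15 pairs with Msr1 or Marco it ran from 0.365 to 0.822. These are descriptions over samples that also share group, library depth and the make-up of the sorted cells.

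**Figure D2:**
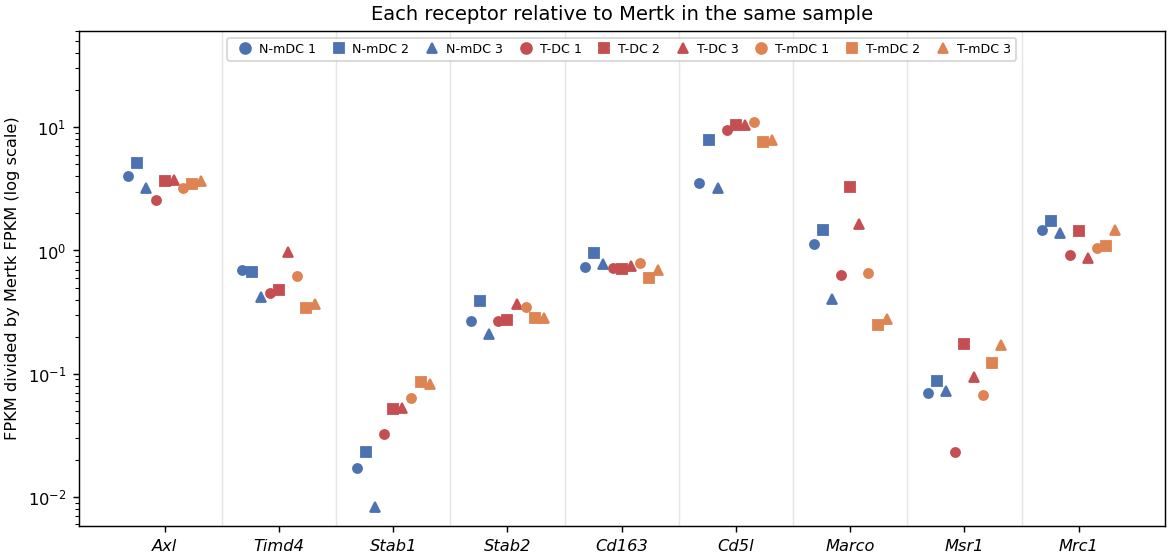
FPKM of each gene divided by the FPKM of Mertk in the same sample (log axis), with a point per sample in the colours and shapes of the legend. Cd163, Stab2, Mrc1 and Axl keep a narrow range (Cd163 0.602 to 0.947). Marco runs from 0.246 to 3.25, and Stab1 and Msr1 also range widely.

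T-DCs were compared with N-mDCs and T-mDCs to ask how the cells that appear in leukemia differ from mature cDCs. Among the 9 tested genes, 0 passed the threshold in limma between T-DCs and N-mDCs, against 16.4% of all tested genes (2096 of 12746), and 1 had an unadjusted p under 0.05 (Msr1). The fitted difference was negative in 8 and positive in 1, with a median of -0.83, where the median over all tested genes was 0.0529. Voom also called 0. Between T-DCs and T-mDCs, 0 passed, against 14.2% of all tested genes (1813), and 1 had an unadjusted p under 0.05 (Marco), the gene that voom called. All 9 differences were above 0, although that of Msr1 (0.09) was -0.12 after rescaling to TPM. Without T-DC sample 1, 4 of the 9 were below 0 (Mrc1 -0.15, Mertk -0.090, Stab2 -0.074 and Cd163 -0.039), and Axl was 0.022 and Cd5l 0.18. With all samples, the median of the 9 differences was 0.74, where the median over all tested genes was 0.0684. The 3 T-DC samples enter both comparisons. The samples of these groups overlapped in all 9, while 16.8% of all tested genes were higher in T-DCs without overlap. For 7 of the 10 genes every T-DC sample was above T-mDC samples 2 and 3, and T-mDC sample 1 lay above at least 1 T-DC sample. T-mDC samples 2 and 3 are the very close pair, and the share of all tested genes with this pattern was not counted.

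**Figure D3:**
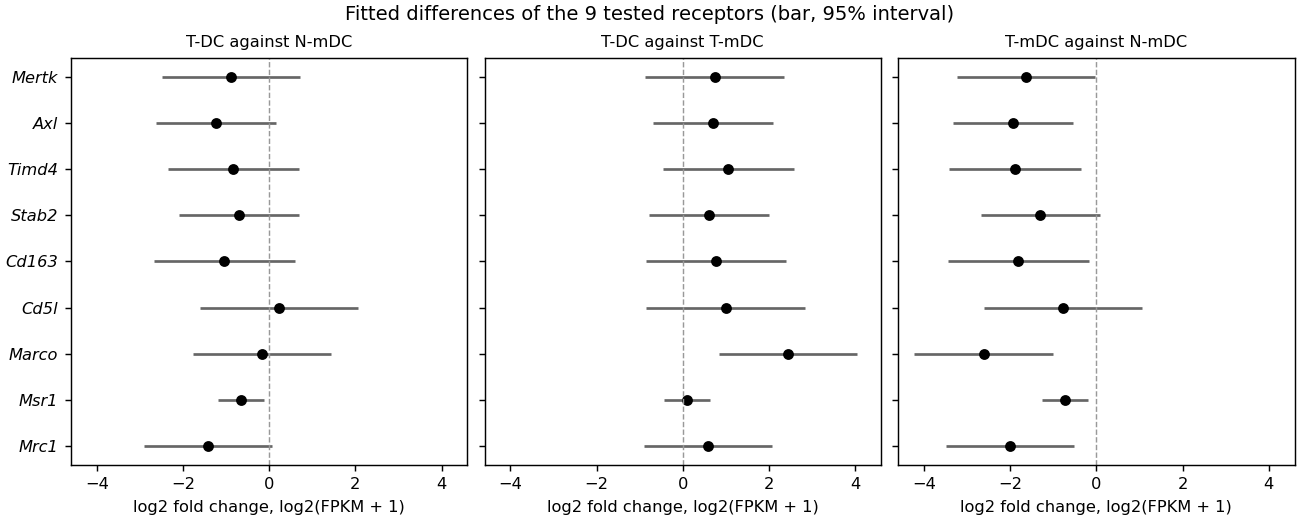
Fitted log2 fold changes of the 9 tested genes on log2(FPKM + 1) with 95% intervals, in 3 panels, with T-DCs set against N-mDCs (left) and T-mDCs (middle), and T-mDCs set against N-mDCs (right). Only the interval of Msr1 lies off 0 in the first panel and only that of Marco in the second (0.84 to 4.05), while 7 lie below 0 in the third.

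The count against N-mDCs also moved with T-DC sample 1. Without it, 5 of the 9 genes passed the threshold and were lower in T-DCs (limma), where 2419 of the 12746 tested genes were called lower. These were Mrc1 (-2.15, adjusted p = 0.00936), Axl (-1.92, adjusted p = 0.0121), Cd163 (-1.85, adjusted p = 0.0257), Mertk (-1.72, adjusted p = 0.0251) and Stab2 (-1.37, adjusted p = 0.0461). With T-DC samples 2 and 3 left out instead, a choice made after the values were seen, 0 of the 9 genes and 746 of all 12746 tested genes passed. That fit has 1 T-DC sample, which is assumed to vary like the other groups. In it 7 genes that had been negative were positive against N-mDCs. These include Cd163 (0.58), Stab2 (0.66) and Mertk (0.76), so the sign itself depended on which T-DC samples were used.

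Between T-mDCs and N-mDCs, both sorted as mature cDCs, the T-mDC samples were all below the N-mDC samples in 7 of the 9 tested genes, while 15.7% of all tested genes were lower without overlap. These were Marco (-2.62 ± 0.71), Mrc1 (-1.999 ± 0.65), Axl (-1.94 ± 0.61), Timd4 (-1.89 ± 0.67), Cd163 (-1.81 ± 0.72), Mertk (-1.63 ± 0.71) and Msr1 (-0.74 ± 0.23). Stab2 (-1.30 ± 0.61) and Cd5l (-0.77 ± 0.81) overlapped. In limma 0 of the 9 passed the threshold, against 2.21% of all tested genes (282), although 7 had an unadjusted p under 0.05, as did 2130 of all 12746 tested genes, and adjusted p ran from 0.109 for Marco to 0.676 for Cd5l. Voom called 0 as well. The 7 at an unadjusted p under 0.05 were 4 with T-mDC samples 2 and 3 averaged, 2 without T-mDC sample 2, and 4 without T-mDC sample 3 or without N-mDC sample 2. Without T-mDC sample 1, Marco passed (-3.46, adjusted p = 0.0232). Without T-DC sample 1, which enters through the shared spread, Axl (adjusted p = 0.0310) and Mrc1 (adjusted p = 0.0336) passed.

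Sums of some marker lists moved with these genes. The summed FPKM of the 10 genes was 374.0, 540.2 and 479.4 in N-mDCs, 919.6, 232.4 and 161.1 in T-DCs and 425.6, 101.3 and 99.3 in T-mDCs. The 15 macrophage markers, none of them at 0 in any sample, summed to 3360, 6790 and 4266 FPKM in N-mDCs, 6341, 2335 and 1592 in T-DCs and 2792, 825.6 and 816.5 in T-mDCs. Their sum was thus also highest in sample 1 of both leukemic groups. All 15 were tested. For these and the other marker lists, 16.4% of all tested genes passed against N-mDCs and 14.2% against T-mDCs. Fcgr1 and Siglec1 were lower in T-DCs than N-mDCs, and Cd14 was higher in T-DCs than in T-mDCs. The study itself counts Cd163, Marco and Mertk among its macrophage genes. The 8 erythroid markers went the other way within T-DCs, at 602.7, 57937 and 41950 FPKM, and all 8 were higher in T-DCs than in T-mDCs. So did the 6 neutrophil markers (7.44, 3002 and 993.9 FPKM), none of which passed in either comparison. The sum of the 6 monocyte markers was highest in sample 1 of both leukemic groups. It was 699.0, 428.3 and 338.3 FPKM in T-DCs and 309.1, 198.9 and 196.9 in T-mDCs. Ace made up much of it in T-DCs (424.5, 175.0 and 156.8 FPKM). Not every marker followed the sum. Ly6c2 was lowest in T-DC sample 1 (8.25 FPKM, against 30.5 and 27.6). Plac8 was lowest in T-mDC sample 1 (168.9 FPKM, against 178.2 and 177.0). Of the 6, Plac8 and Ccr2 were lower in T-DCs than N-mDCs, and Ace and Cx3cr1 were higher in T-DCs than T-mDCs. Within T-DCs, sums of DC lists were highest in sample 1 too, at 1767, 1215 and 497.4 FPKM for the 6 DC markers. The cDC1 (190.5, 84.6 and 48.1 FPKM), cDC2, pDC and endothelial sums were as well. The T-lineage and NK sums were lowest there. Within T-mDCs, the pDC, cDC2, B-lineage and endothelial sums were highest in sample 1. So was the erythroid sum (179.1, 21.5 and 14.5 FPKM), unlike within T-DCs. The DC, cDC1, T-lineage, NK and neutrophil sums were lowest in T-mDC sample 1. The part of other cells in the values was not tested. In bulk RNA, fewer cells of a type and less RNA per cell cannot be told apart.

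**Figure D4:**
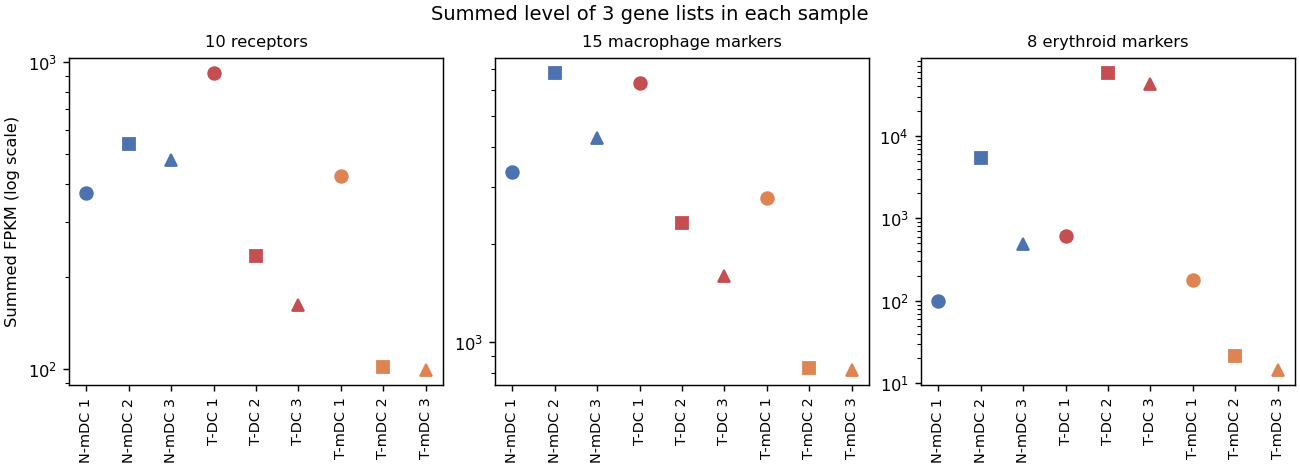
Summed FPKM (log axes, which differ between panels) of the 10 genes, the 15 macrophage markers and the 8 erythroid markers in each of the 9 samples. T-DC sample 1 has the highest sum of the 10 genes (919.6) and a high macrophage sum (6341), and T-DC samples 2 and 3 have the highest erythroid sums (57937 and 41950).

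The genes whose levels were most like those of each gene across the 9 samples were taken as the 3 with the highest Pearson r. For Cd163 they were Galnt3 (r = 0.994), Igf1 (0.993) and P2ry13 (0.990), and for Stab2 Slco2b1 (0.995), Vcam1 (0.993) and P2ry13 (0.992). For Mertk they were P2ry13 (0.991), Maf (0.990) and Plpp3 (0.990), and for Axl Igf1 (0.992), Abcc3 (0.991) and Spic (0.989). Spic encodes a transcription factor that red pulp macrophages need. Near Timd4 were Hpgd (0.974) and Slco2b1 (0.967), and Mrc1 was closest to Tnfrsf13b (0.988), Kcnj10 (0.988) and Cmbl (0.984). Cd5l was closest to Hs3st2 (0.991), Clec4n (0.982) and Fsd2 (0.980). Marco had other neighbours (Gm15590, Adamdec1 and Gm2225, r = 0.957, 0.944 and 0.943), and so did Msr1 (Gm45552, Hpse and Zbtb32, r = 0.976, 0.956 and 0.951).

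The ligands that bridge dying cells to these receptors were a list of 9 genes, of which 8 were tested. Their counts stand beside the 16.4% of all tested genes that passed against N-mDCs and the 14.2% against T-mDCs. Mfge8, which links phosphatidylserine to integrins, was lower in T-DCs than N-mDCs (-1.08 ± 0.17, adjusted p = 0.00518, limma), at 1.52, 1.10 and 1.11 FPKM against 3.83, 4.26 and 3.13. Gas6, the ligand of MerTK and Axl, was also lower (-1.12 ± 0.29, adjusted p = 0.0348), at 1.21, 0.684 and 0.258 FPKM against 1.71, 4.02 and 2.53. The other 6 did not pass. Pros1, which encodes protein S, was at 8.51, 3.30 and 3.13 FPKM in T-DCs and 1.25, 1.76 and 2.84 in N-mDCs (0.94 ± 0.45, adjusted p = 0.169). All 3 T-DC samples were above all N-mDC samples for Pros1 and below them for Gas6 and Mfge8. Without overlap, 16.4% of all tested genes were lower in T-DCs than N-mDCs, and the share that was higher was not counted. Against T-mDCs only Anxa1, which encodes annexin A1, passed, and it was higher in T-DCs (1.36 ± 0.30, adjusted p = 0.0222). The C1q chains, which are on the macrophage list too, did not pass in either comparison.

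Other receptors for dying cells numbered 14, of which 10 were tested. Here too, 16.4% of all tested genes passed against N-mDCs and 14.2% against T-mDCs. Clec9a, the receptor by which cDC1s sense actin of dead cells, was at 11.4, 4.51 and 2.80 FPKM in T-DCs, 38.4, 32.3 and 30.2 in N-mDCs and 40.3, 66.8 and 66.8 in T-mDCs. It was lower in T-DCs than N-mDCs (-2.43 ± 0.41, adjusted p = 0.00654, limma) and than in T-mDCs (-3.17 ± 0.41, adjusted p = 0.00261). Clec9a is a cDC1 marker as well. All 7 cDC1 markers had negative differences between T-DCs and N-mDCs, and 5 of them passed. Against T-mDCs all 7 passed as lower. Havcr2, which encodes TIM-3, was lower against both (-1.51 and -1.43, adjusted p = 0.0309 and 0.0397). Cd300lb and Itgb3 were higher in T-DCs than in T-mDCs (1.98 and 1.65, adjusted p = 0.0219 and 0.0297). The remaining 8 did not pass against N-mDCs, nor 6 against T-mDCs. Among these, Lrp1 was at 77.3, 28.3 and 14.8 FPKM in T-DCs, with sample 1 again the highest.

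Of 15 other scavenger receptor genes 9 were tested, and 3 passed against both groups. Among all tested genes 16.4% passed against N-mDCs and 14.2% against T-mDCs. Cd36, a class B scavenger receptor for oxidised lipids and dying cells, was higher in T-DCs, at 115.0, 80.1 and 68.4 FPKM against 30.2, 21.7 and 30.3 in N-mDCs and 50.7, 31.3 and 32.7 in T-mDCs. Its T-DC samples were above all others, sample 1 included. The difference was 1.63 ± 0.27 against N-mDCs (adjusted p = 0.00645, limma) and 1.18 ± 0.27 against T-mDCs (adjusted p = 0.0241). Cxcl16, a chemokine that also acts as a scavenger receptor, was lower in T-DCs, at 6.36, 3.14 and 1.74 FPKM, than in N-mDCs (-3.33 ± 0.45, adjusted p = 0.00278) and T-mDCs (-4.10 ± 0.45, adjusted p = 0.0019). Cd5, an SRCR protein of lymphocytes, was lower too (-2.37 and -0.996, adjusted p = 0.00173 and 0.0498). For Cd36, Cxcl16 and Cd5 all 3 T-DC samples lay on the same side of all N-mDC samples. As for Cxcl16 and Cd5, 16.4% of all tested genes were lower in T-DCs without overlap. The share that was higher, as Cd36 was, was not counted.

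The relatives of Mrc1 were a list of 4 genes, of which 3 were tested and 0 passed against N-mDCs (16.4% of all tested genes did). Against T-mDCs 14.2% of all tested genes passed. Ly75, which encodes DEC-205, an uptake receptor of cDC1s, was at 3.35, 2.53 and 1.31 FPKM in T-DCs and 19.9, 26.2 and 26.4 in T-mDCs (-2.93 ± 0.44, adjusted p = 0.00447, limma). Mrc2, a collagen receptor, was at 1.29, 0.135 and 0.661 FPKM in T-DCs and 3.92, 12.1 and 12.8 in T-mDCs (-2.56 ± 0.45, adjusted p = 0.0082). Both were lower in T-DCs.

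Genes downstream of the receptors and genes that act on them were also listed, with the same shares of all tested genes beside them (16.4% and 14.2%). Of 14 engulfment genes 13 were tested, and Crkl was higher in T-DCs than in N-mDCs (0.77, adjusted p = 0.0223, limma). Against T-mDCs, Cybb, the NADPH oxidase subunit, was higher (1.53, adjusted p = 0.0442) and Rubcn, which acts in the uptake of dead cells with LC3, was lower (-1.15, adjusted p = 0.0256). Of 5 genes that shed or restrain the receptors 4 were tested. Adam10, a protease that sheds membrane proteins, was at 41.3, 92.9 and 72.7 FPKM in T-DCs, above every sample of the other groups (12.97 to 26.6 FPKM). The share of all tested genes with this pattern was not counted. Adam10 was higher than in N-mDCs by 1.74 ± 0.32 (log2, adjusted p = 0.00987) and than in T-mDCs by 1.43 ± 0.32 (adjusted p = 0.0233). Adam17, the protease known to cleave MerTK, did not pass. Cd47, the signal that tells phagocytes not to engulf a cell, was at 77.7, 127.0 and 98.7 FPKM in T-DCs and higher than in N-mDCs (0.75, adjusted p = 0.0364). Adam10 and Cd47 were both higher in T-DC samples 2 and 3, which hold the most erythroid RNA, than in T-DC sample 1. With red cell genes as a covariate neither call against N-mDCs was kept (Adam10 1.41, adjusted p = 0.0949, and Cd47 0.49, adjusted p = 0.247). Of all tested genes, 604 passed with it and 2096 without it. Of 10 transcription factors linked to these genes, such as Spic, Maf and the liver X receptors, 0 passed against N-mDCs. Nfe2l2, the factor of the oxidative stress response, was higher in T-DCs than in T-mDCs (1.01, adjusted p = 0.0251). Between T-mDCs and N-mDCs, where 2.21% of all tested genes passed, 3 genes of these lists did, all lower in T-mDCs: Thbs1, Cd5 and Nfe2l2. Thbs1 passed in no comparison with T-DCs and is named here after its values were seen.

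These calls differed in how far they rested on single samples. Of the 10 list genes called between T-DCs and N-mDCs, 6 (Mfge8, Clec9a, Cd36, Cxcl16, Cd5 and Adam10) passed whichever sample was left out. The calls of Gas6, Havcr2, Crkl and Cd47 were lost when T-DC sample 2 or T-DC sample 3 was left out, and under other settings too, with adjusted p up to 0.0762 to 0.120 without 1 sample. Over all alternatives that gave a value, Cd47 was called in 7 of 23, Gas6 in 8 of 22, Havcr2 in 9 of 23 and Crkl in 15 of 23. Of the 14 called against T-mDCs, 4 (Clec9a, Cxcl16, Ly75 and Mrc2) passed whichever sample was left out. The other 10 were lost when either T-mDC sample 2 or T-mDC sample 3 was left out, the pair that is very close, with adjusted p up to 0.0986 to 0.193. Of these 10, Cybb and Cd5 were called in 7 of 23 alternatives, Havcr2 in 10 and the others in 13 to 15. With red cell genes as a covariate, 5 of the 10 calls against N-mDCs were kept (Mfge8, Clec9a, Cd36, Cxcl16 and Cd5) and 0 of the 14 against T-mDCs. Of all 12746 tested genes, 604 passed with it against N-mDCs (2096 without it) and 0 against T-mDCs (1813 without it). All 8 erythroid markers were higher in T-DCs than in T-mDCs. The loss of the 14 calls there thus cannot tell these genes from others.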

How the data were processed

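Bulk RNA-seq of 9 samples in 3 groups was used, and samples were assigned to groups by their GEO titles. The authors deposited FPKM values for 54532 genes. The labels name the genome build mm10, and the aligner, the counter and the use of strand are not given in the sources used here. Each FPKM times the length of its gene came to whole reads to about 5.59e-05 of a read, so depth is known (15360815 to 18440913 reads on genes). All members had the same start and end in GENCODE M21 (GRCm38).

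Genes that reached an FPKM of 1 in 3 or more samples were analysed as log2(FPKM + 1), which understates the change of low genes. All groups shared 1 limma fit (version 3.58.1, R 4.3.3, lmFit, contrasts.fit, eBayes with trend), with Benjamini-Hochberg adjustment over all 12746 tested genes. The procedure was also run on simulated data in which the samples varied independently, and its outcome is not given here. Those data held no outlying sample and no very close pair, so they do not bear on these features. Tables and plots were made with Python, and upstream sequences came from RefSeq (GRCm38.p6), which matched 9 of the 10 genes.

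The 10 genes and the other lists were chosen with earlier results of these data known, so counts over them are descriptions. Named were the 10 genes, list genes past the threshold in a comparison with T-DCs, and the 3 genes closest to each tested member by Pearson r, of which 1 is not reported here. Alternatives were another pseudocount, other filters, TPM, quantile and median-of-ratios scaling, array weights, a fit of only the groups compared, a replicate block, no variance trend, voom on recovered reads, T-mDC samples 2 and 3 averaged, red cell genes as a covariate and leaving out each sample. Median-of-ratios scaling left genes called at 2096, 1813 and 283 (2096, 1813 and 282 as reported), so it was hardly a separate alternative. Leaving out T-DC samples 2 and 3 together was added after seeing the data. The other assays of the study, single-cell data included, were not used here.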

Additional observations from a re-analysis of the deposited data

How the results depend on the processing

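At this depth Stab1 (67 reads at least), Msr1 (73 reads at least) and 2 other genes in T-mDC samples 2 and 3 rest on few reads. These are Marco (63 and 62 reads) and Timd4 (98 and 92 reads). The other values of the 10 genes rest on more. The tests rest on 3 samples a group. The cause was not tested where a value below changed. TPM moved the median difference of all tested genes from 0.0684 to -0.225 (T-DCs against T-mDCs) and from 0.0272 to 0.214 (T-mDCs against N-mDCs), where voom gave 0.13. With TPM, 443 genes were called higher and 1550 lower in T-DCs than in T-mDCs (693 and 1120 as reported), and 96 higher and 109 lower in T-mDCs than in N-mDCs (88 and 194 as reported).

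The count of the 10 genes past the threshold was 0 in each comparison as reported. It ran from 0 to 5 between T-DCs and N-mDCs, from 0 to 1 between T-DCs and T-mDCs and from 0 to 2 between T-mDCs and N-mDCs when each sample was left out. Array weights gave 6, 8 and 8, but the weights did not converge and T-DC sample 2 received a weight of 46.6. Between T-DCs and T-mDCs, voom and the replicate block gave 1 (Marco). Between T-mDCs and N-mDCs, the fit of only these groups and the fit with T-DC samples 2 and 3 left out gave 1 (Mrc1). The other alternatives gave 0.

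Genes called between T-DCs and N-mDCs ran from 980 to 5030 without 1 sample, and were 1070 in a fit of only these groups, 8485 with array weights, 1378 with the replicate block, 1394 with T-mDC samples 2 and 3 averaged, 604 with red cell genes as a covariate and 746 with T-DC samples 2 and 3 left out. Between T-DCs and T-mDCs the range was 541 to 4475, with 1190 at an FPKM of at least 5, 1036 in a fit of only these groups, 9923 with array weights, 540 with T-mDC samples 2 and 3 averaged, 741 with T-DC samples 2 and 3 left out and 0 with the red cell covariate, where limma gave 1705 at an unadjusted p under 0.05. Between T-mDCs and N-mDCs it was 23 to 1022, with 107 at a pseudocount of 0.1, 111 at an FPKM of at least 5, 850 in a fit of only these groups, 3841 with array weights, 78 with the replicate block, 173 with voom, 23 with T-mDC samples 2 and 3 averaged and 849 with T-DC samples 2 and 3 left out. The highest counts without 1 sample were those without T-DC sample 1.

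Fitted differences of the 10 genes changed sign in 14 of the values between T-DCs and N-mDCs, 8 between T-DCs and T-mDCs and 0 between T-mDCs and N-mDCs. With T-DC samples 2 and 3 left out, Marco was 0.31, Cd163 0.58, Mrc1 0.049, Stab2 0.66, Timd4 0.41, Mertk 0.76 and Axl 0.13 against N-mDCs. Array weights gave 0.36 for Marco and -0.13 for Cd5l, and the red cell covariate 0.087 for Mertk. When each sample was left out, Marco ran from -0.49 to 0.29 (above 0 if N-mDC sample 2 or T-DC sample 3 was dropped) and Cd5l from -0.59 to 0.74 (below 0 without sample 1 of either group). Against T-mDCs, Msr1 was -0.12 with TPM, -0.037 with the red cell covariate and -0.078 to 0.28 without 1 sample (below 0 without sample 2 of either group). Without 1 sample, Cd163 ran from -0.039 to 1.38, Mrc1 from -0.15 to 1.20, Stab2 from -0.074 to 1.15 and Mertk from -0.090 to 1.28, each below 0 only without T-DC sample 1.

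Samples with the same replicate number did not deviate together (correlations of deviations from the group means of -0.475 to 0.269), so the numbers were not taken as pairs. The replicate block moved genes called to 1378, 1253 and 78, and under it Marco passed between T-DCs and T-mDCs (adjusted p = 0.0359).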
